A study of Mus musculus with 4 samples.

Results

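The 10 immunoglobulin constant region genes described here are Ighm, Ighd, Ighg1, Ighg2b, Ighg2c, Ighg3, Igha, Igkc, Iglc1 and Iglc2. They were chosen by name as the genes that encode the heavy and light chain constant regions of mouse antibodies, and all 10 were found among the 23763 genes of the table. Spleens came from C57BL/6J mice at baseline, and their RNA was sequenced in 4 directional libraries after ribosomal RNA was depleted. The libraries fell into 2 groups, KLHL3-KI (mice with a knock-in at Klhl3, which encodes a substrate adaptor of a cullin ubiquitin ligase) and wild type (WT), with 2 libraries each. The study asked how the RNA profile of the spleen differs between knock-in and wild-type mice. The sources used here give neither the knock-in allele nor the age and sex of the mice, nor whether each library came from its own animal.

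An antibody is built of a pair of identical heavy chains and a pair of identical light chains, and the constant region of the heavy chain sets its class. A naive B cell makes IgM and IgD together, by alternative processing of one long transcript that covers Ighm and Ighd. After activation, class switch recombination joins the variable region to a constant gene farther along the locus, giving IgG subclasses, IgE or IgA. Each B cell uses either the kappa light chain, with the constant gene Igkc, or a lambda chain, and kappa is by far the more common in mice. The spleen holds naive follicular and marginal zone B cells beside antibody-secreting plasma cells, and a plasma cell carries far more immunoglobulin RNA than a resting B cell. A gene-level value does not separate the membrane form from the secreted form of a heavy chain, and it can include germline transcripts of a constant gene that has not been joined to a variable region.

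The heavy chain genes lie on chromosome 12 (reverse strand), Igkc lies on chromosome 6 (forward strand) and the lambda genes lie on chromosome 16 (reverse strand). Coordinates are not printed, because the table was made on GRCm39 and the annotation used for names and sequences is GENCODE M21 on GRCm38. The sequences below come from the transcripts of that annotation, 5′ to 3′ in the direction of transcription. They show how far reads of one constant gene can be told from those of its neighbours.

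The first 60 bases of the first constant exon of Ighm and Ighd are shown because the ratio of these genes is a result below. The constant transcripts of this pair had 38.5% identical bases in a global alignment and shared no stretch of 50 bases.
Ighm: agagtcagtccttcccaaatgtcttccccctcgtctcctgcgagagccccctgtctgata
Ighd: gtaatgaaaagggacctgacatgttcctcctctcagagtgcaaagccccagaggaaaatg

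The hinge exons are shown because the hinge is where the 4 IgG subclasses differ most visibly, and capitals mark cysteine codons in the reading frame. Ighg1 and Ighg2b had 4 such codons, Ighg2c had 3 and Ighg3 had 1.
Ighg1: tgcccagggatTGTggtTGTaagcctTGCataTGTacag
Ighg2b: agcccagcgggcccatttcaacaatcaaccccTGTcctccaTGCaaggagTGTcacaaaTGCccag
Ighg2c: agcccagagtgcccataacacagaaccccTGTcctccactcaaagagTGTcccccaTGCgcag
Ighg3: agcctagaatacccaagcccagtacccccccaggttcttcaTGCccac

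Ighg2b and Ighg2c had 86.2% identical bases over their constant transcripts, and the other pairs of IgG subclasses had 72.5% to 74.7%. Of the 50-base windows of Ighg2b, 5.26% were also found in Ighg2c, and no 100-base window was shared by any member with another gene.

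A stretch of 60 bases from the lambda genes is shown because Iglc2 has a near-identical copy, Iglc3, which is not among the 10 genes. Capitals mark bases that differ from Iglc2: there are 18 in Iglc1 and 4 in Iglc3.
Iglc1: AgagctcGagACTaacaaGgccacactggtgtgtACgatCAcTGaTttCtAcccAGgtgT
Iglc2: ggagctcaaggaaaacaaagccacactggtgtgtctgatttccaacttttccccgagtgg
Iglc3: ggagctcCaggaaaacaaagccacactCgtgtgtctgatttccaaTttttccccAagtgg

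Over the whole constant transcript, Iglc2 and Iglc3 had 94.3% identical bases and Iglc1 and Iglc2 had 66.7%. Of the 50-base windows of Iglc2, 10.5% were also found in Iglc3, so the authors' counting could divide some reads of this pair either way. The constant exon of Igkc, whose first bases are given for comparison with the lambda genes, shared no 50-base window with another gene.
Igkc: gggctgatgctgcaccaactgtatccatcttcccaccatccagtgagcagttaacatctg

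The whole reads behind the table came to 9586677 and 10933023 in KLHL3-KI replicates 1 and 2, and to 8535483 and 8975415 in WT replicates 1 and 2. Klhl3 itself was low in spleen, with 23 and 14 reads in KLHL3-KI libraries, against 27 and 45 reads in WT libraries, which does not check a knock-in allele. Values below are scaled read counts per gene unless a share or a value per kilobase is named, and every log2 fold change is the KLHL3-KI mean minus the WT mean on the scale log2(value + 1), with its standard error (SE) from limma. A gene was called at a Benjamini-Hochberg adjusted p under 0.05 over the 16970 genes tested, those whose values averaged 1 or more. All 10 constant genes were tested, and the lowest value of any of them in any library was 80.4.

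Of the 10 constant genes, Igkc was higher in KLHL3-KI spleens, Ighd and Iglc2 were lower, and the other 7 did not pass the test. Igkc was 1.43 times its WT level, Ighd was 0.594 times and Iglc2 was 0.700 times. Ighm, the most abundant heavy chain gene, had overlapping groups. Across all tested genes, 15.2% were called higher and 7.56% lower (22.8% in either direction), so 3 calls among 10 genes are a share near that background. The median log2 fold change of the 10 genes was −0.19, against −0.01 over all tested genes. In 1 of the 10 genes both KLHL3-KI values lay above both WT values, in 3 they lay below, and in 6 the groups overlapped. Over all tested genes 32.8% did not overlap in the higher direction and 31.9% in the lower.

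**Figure D1:**
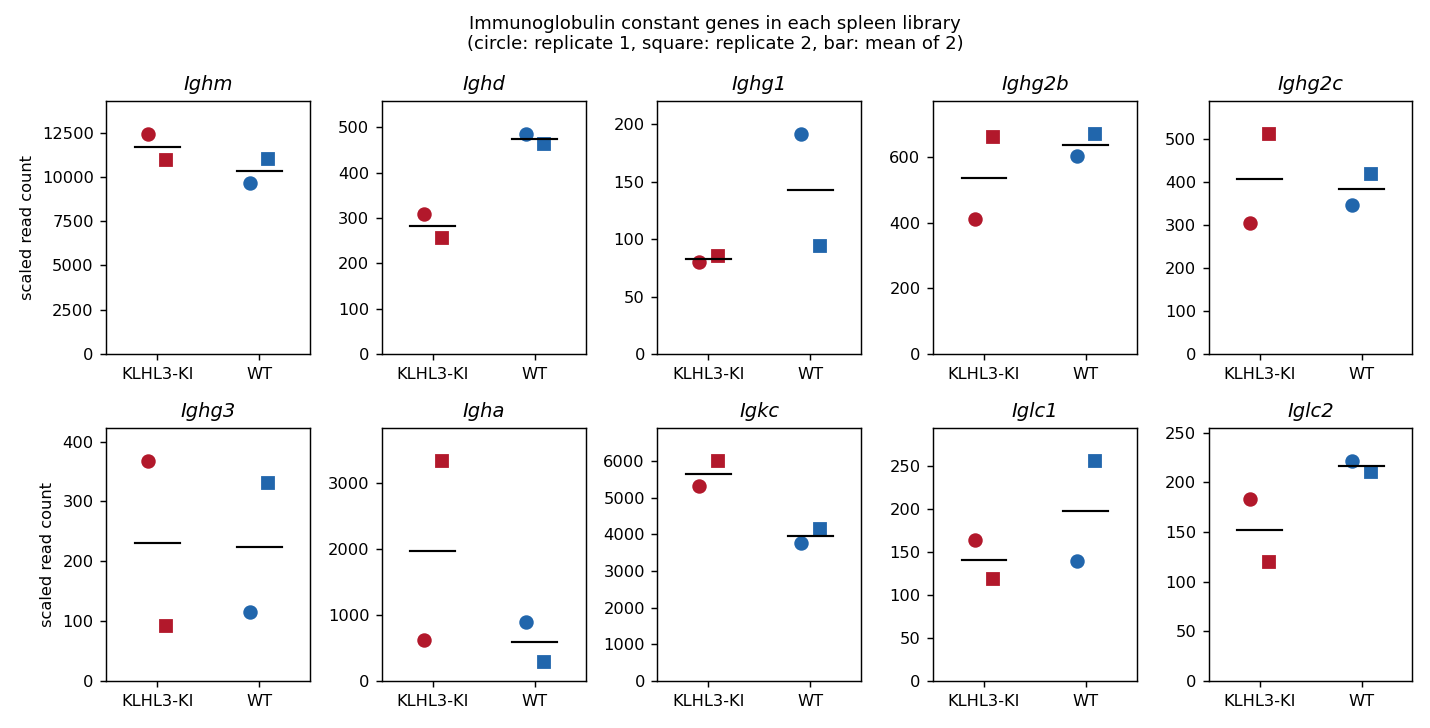
Scaled read counts of the 10 constant genes in each library, one panel per gene on a linear axis from 0, with KLHL3-KI (red) left of WT (blue), a circle for replicate 1, a square for replicate 2 and a bar at the mean of the group. Ighd and Iglc2 lie lower and Igkc lies higher in both KLHL3-KI libraries, while the 2 libraries of a group lie far apart for Igha and Ighg3.

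Ighd, the constant gene of IgD, fell. Its values were 309 and 255 in KLHL3-KI libraries, against 486 and 464 in WT libraries. Both KLHL3-KI values were below both WT values, with means of 282 ± 38.3 in KLHL3-KI and 475 ± 15.5 in WT (SD, n = 2 each). The log2 fold change was −0.76 (SE 0.11, adjusted p = 0.00103, limma). It was called in all 17 alternative fits, including the 4 that left out 1 library each, where the log2 fold change ran from −0.89 to −0.62.

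Ighm, the constant gene of IgM, had values of 12431 and 10937 in KLHL3-KI libraries, against 9633 and 11007 in WT libraries. KLHL3-KI replicate 2 lay just under WT replicate 2, so the groups overlapped. The means were 11684 ± 1056 in KLHL3-KI and 10320.3 ± 972 in WT (SD, n = 2 each), and the log2 fold change of 0.18 (SE 0.16, adjusted p = 0.454, limma) did not pass. With quantile normalization its direction turned, to −0.32 with an adjusted p of 0.0164 (limma), against a median of −0.10 over all genes on that scale.

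In naive B cells IgM and IgD come from one primary transcript, and their shares were compared within each library. Ighd made up 2.43% and 2.28% of the Ighd and Ighm reads in KLHL3-KI libraries, against 4.80% and 4.04% in WT libraries. The exact 95% binomial intervals were 2.34% to 2.52% and 2.19% to 2.37% in KLHL3-KI, against 4.66% to 4.94% and 3.93% to 4.16% in WT. These intervals, like all others here, cover counting error only, since reads without molecular identifiers are not independent molecules. The shares averaged 2.35% ± 0.105 in KLHL3-KI and 4.42% ± 0.535 in WT (SD, n = 2 each), and the groups did not overlap. The difference was −2.07 percentage points, and −3.64 when reads were divided by the short annotated lengths. Shares are given with no test, because with 2 libraries in each group the smallest p of an exact permutation test is 0.33. In the model across all genes, the change of Ighd minus that of Ighm was −0.93 (SE 0.19, adjusted p = 0.0175, limma with both variances added), where 2.63% of genes were called lower than Ighm. That call was lost without WT replicate 1 (adjusted p = 0.148), WT replicate 2 (0.0766) or KLHL3-KI replicate 2 (0.0933).

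None of the 4 IgG subclasses passed the test. Ighg1 had values of 80.4 and 85.0 in KLHL3-KI libraries, against 192 and 93.9 in WT libraries. Both KLHL3-KI values were below both WT values, but WT replicate 1 was far above WT replicate 2. The log2 fold change of −0.69 (SE 0.25) had an adjusted p of 0.0811 with limma. It passed in 6 of the 17 alternatives, and 3 of those 6 left out 1 library each. With all 4 libraries, the adjusted p was 0.0304 with equal totals (limma), 0.331 in DESeq2 and 0.440 with a robust variance model (limma). The log2 fold change was −1.20 without WT replicate 2, −0.65 without KLHL3-KI replicate 1 and −0.73 without KLHL3-KI replicate 2. Without WT replicate 1 the log2 fold change was −0.18.

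Ighg2b had values of 412 and 661 in KLHL3-KI libraries, against 603 and 671 in WT libraries. The log2 fold change was −0.28 (SE 0.18, adjusted p = 0.306, limma). Ighg2c, the IgG2 subclass that C57BL/6 mice carry in place of IgG2a, had 304 and 513 in KLHL3-KI libraries, against 348 and 420 in WT libraries. Its log2 fold change was 0.05 (SE 0.20, adjusted p = 0.894, limma). In both genes KLHL3-KI replicate 1 was the lowest library. Leaving out KLHL3-KI replicate 2 brought Ighg2b to −0.62, and leaving out replicate 1 brought it to 0.06. Ighg2c reached 0.42 without KLHL3-KI replicate 1 and −0.33 without replicate 2, so the direction rested on which library was kept.

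Ighg3, a subclass made largely without T cell help, had values of 368 and 91.5 in KLHL3-KI libraries, against 115 and 331 in WT libraries. Each group held one high and one low library. The log2 fold change was −0.09 with an SE of 0.59 (adjusted p = 0.934, limma). Leaving out 1 library at a time gave values from −1.09 (without KLHL3-KI replicate 1) to 0.91 (without KLHL3-KI replicate 2).

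The IgG subclasses together took a smaller share of the heavy chain reads in both KLHL3-KI libraries. The share was 8.03% and 8.50% in KLHL3-KI libraries, against 10.3% and 11.4% in WT libraries, with means of 8.26% ± 0.338 in KLHL3-KI and 10.8% ± 0.821 in WT (SD, n = 2 each). The total includes the Igha reads, which were many in KLHL3-KI replicate 2. Within the IgG reads the subclasses were divided differently from library to library. Ighg3 was 31.6% and 6.78% of IgG reads in KLHL3-KI libraries, against 9.17% and 21.9% in WT libraries. Ighg1 was 6.90% and 6.30% in KLHL3-KI libraries, against 15.2% and 6.20% in WT libraries. Ighg2c was 26.1% and 38.0% in KLHL3-KI libraries, against 27.7% in each of the WT libraries.

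Igha, the constant gene of IgA, the class of mucosal antibodies, had the largest fold change of the 10 genes and the largest spread. Its values were 614 and 3338 in KLHL3-KI libraries, against 892 and 292 in WT libraries. KLHL3-KI replicate 2 stood above the other 3 libraries, and KLHL3-KI replicate 1 lay between the WT libraries. The means were 1976 ± 1927 in KLHL3-KI and 592 ± 424 in WT (SD, n = 2 each), and the log2 fold change of 1.49 (SE 0.68) had an adjusted p of 0.153 with limma. Without KLHL3-KI replicate 1 the log2 fold change was 2.71, and without KLHL3-KI replicate 2 it was 0.27. The lone KLHL3-KI library in such a fit is assumed to vary like the rest. The fit also draws the variance of Igha toward that of genes of like level, so no p-value is given for these 2 values.

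**Figure D2:**
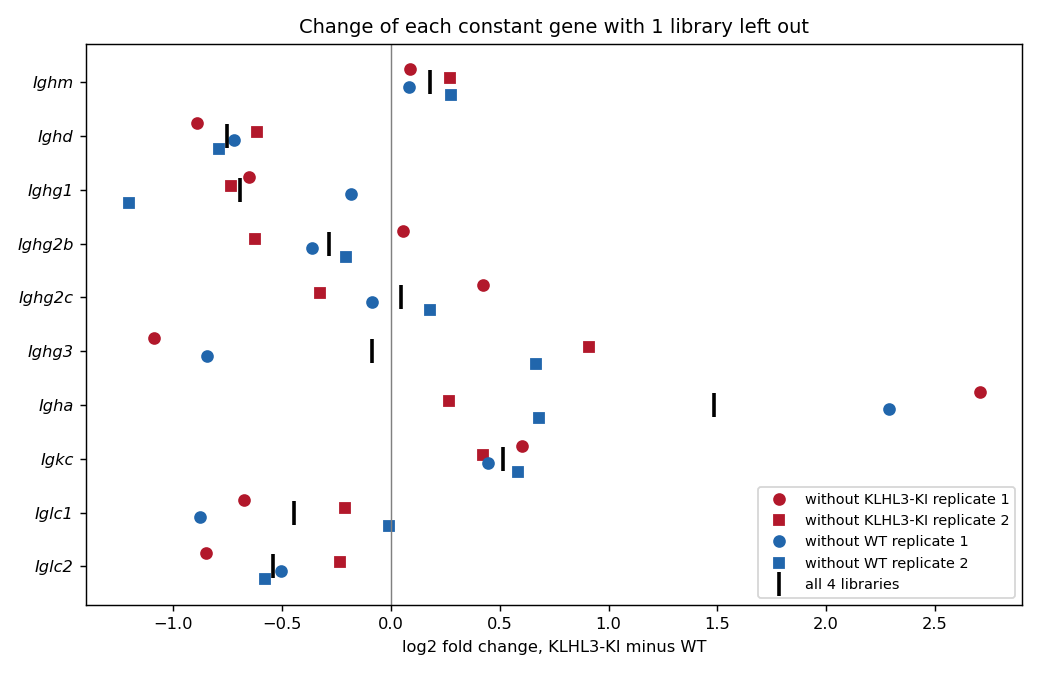
Log2 fold change (KLHL3-KI minus WT) of each constant gene with all 4 libraries (black bar) and with 1 library left out at a time (points). Ighd stays between −0.89 and −0.62, Igkc stays above 0, and Igha runs from 0.27 to 2.71.

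The make-up of the heavy chain reads varied within the KLHL3-KI group. Ighm was 85.6% and 68.9% of heavy chain constant reads in KLHL3-KI libraries, against 78.5% and 82.9% in WT libraries. Switched classes (IgG and IgA) were 12.3% and 29.5% in KLHL3-KI libraries, against 17.5% and 13.6% in WT libraries. Igha alone was 4.23% and 21.0% in KLHL3-KI libraries, against 7.27% and 2.20% in WT libraries. These shares overlapped between the groups, and both the lowest and the highest switched share were in KLHL3-KI libraries.

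**Figure D3:**
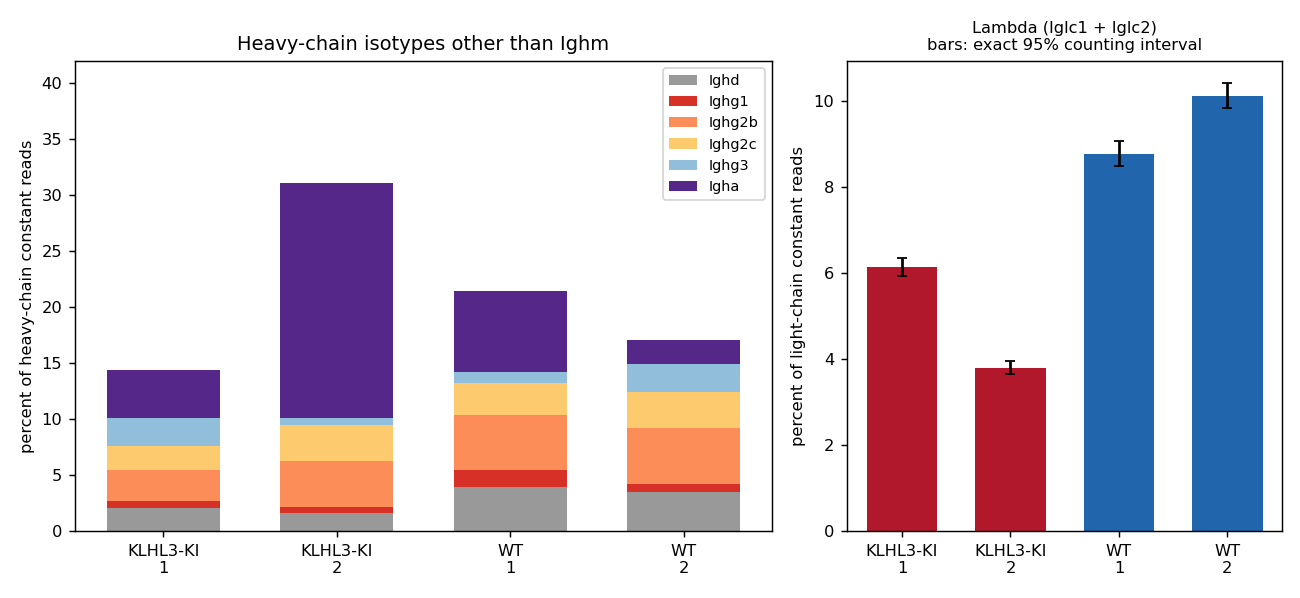
Left, stacked percent of heavy chain constant reads for each class other than Ighm, and right, percent of light chain constant reads that are lambda with exact 95% counting intervals, with KLHL3-KI libraries left of WT libraries. KLHL3-KI replicate 2 has 21.0% Igha among heavy chain reads, and the lambda share of light chain reads is 6.13% and 3.80% in KLHL3-KI libraries, against 8.76% and 10.1% in WT libraries.

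Igkc, the single kappa constant gene, rose. It had values of 5311 and 6015 in KLHL3-KI libraries, against 3769 and 4151 in WT libraries. Both KLHL3-KI values were above both WT values, with means of 5663 ± 498 in KLHL3-KI and 3960.1 ± 270.5 in WT (SD, n = 2 each). The log2 fold change was 0.51 (SE 0.13, adjusted p = 0.0209, limma). The direction held in all 17 alternatives, from 0.23 to 0.60, but the call was lost in 7 of them, among them quantile normalization (adjusted p = 0.164) and leaving out WT replicate 1 (0.117), WT replicate 2 (0.0630) or KLHL3-KI replicate 2 (0.159).

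The lambda genes were lower or overlapping. Iglc2 fell, with 183 and 119 in KLHL3-KI libraries, against 222 and 211 in WT libraries. Its means were 151 ± 45.2 in KLHL3-KI and 216 ± 7.73 in WT (SD, n = 2 each), and its log2 fold change was −0.54 (SE 0.17, adjusted p = 0.0445, limma). The direction was negative in all 17 alternatives, but the call was lost in 8, with an adjusted p of 0.0556 in edgeR and 0.291 in DESeq2. Leaving out WT replicate 1 (adjusted p = 0.217), WT replicate 2 (0.191) or KLHL3-KI replicate 2 (0.222) also ended it.

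Iglc1 had values of 164 and 118 in KLHL3-KI libraries, against 140 and 256 in WT libraries, and the groups overlapped. Its log2 fold change was −0.44 (SE 0.24, adjusted p = 0.227, limma). It was −0.88 without WT replicate 1 and −0.68 without KLHL3-KI replicate 1, but −0.01 without WT replicate 2. Iglc3, the near-identical copy of Iglc2, had 66.7 and 55.3 in KLHL3-KI libraries, against 75.1 and 68.5 in WT libraries. Its log2 fold change was −0.24 (SE 0.12, adjusted p = 0.182, limma), so it was not called, and both KLHL3-KI values were below both WT values.

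As a share, lambda reads (Iglc1 and Iglc2) were 6.13% and 3.80% of light chain constant reads in KLHL3-KI libraries, against 8.76% and 10.1% in WT libraries. The exact 95% binomial intervals were 5.93% to 6.34% and 3.66% to 3.95% in KLHL3-KI, against 8.47% to 9.05% and 9.84% to 10.4% in WT. The groups did not overlap, with means of 4.97% ± 1.65 in KLHL3-KI and 9.44% ± 0.960 in WT (SD, n = 2 each), a difference of −4.47 percentage points. With Iglc2 left out of the sums because of its near-identical copy, the difference was −2.24 percentage points. Relative to Igkc in the model across all genes, Iglc2 changed by −1.06 (SE 0.21, adjusted p = 0.00708, limma) and Iglc1 by −0.96 (SE 0.28, adjusted p = 0.0212, limma). On that scale 46.4% of all genes were called lower, so passing the test there is not particular to the lambda genes.

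Light chain reads (Igkc, Iglc1 and Iglc2) made up 28.0% and 28.3% of the reads of the 10 genes in KLHL3-KI libraries, against 25.2% and 25.8% in WT libraries. The 2 libraries of each group were close together, at 28.1% ± 0.149 in KLHL3-KI and 25.5% ± 0.437 in WT (SD, n = 2 each). The change of Igkc minus that of Ighm was 0.34 (SE 0.21, adjusted p = 0.324, limma), which did not pass. All 10 genes together took 1.91% and 2.08% of all reads in KLHL3-KI libraries, against 1.72% and 1.92% in WT libraries, and these shares overlapped.

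The 10 genes differed widely in how well the 2 libraries of a group matched. The absolute log2 difference between the libraries of a group was 2.44 for Igha in KLHL3-KI and 1.61 in WT, a 5.44-fold and a 3.06-fold gap. For Ighg3 it was 2.00 in KLHL3-KI and 1.51 in WT. Among the 4414 genes that averaged 50 or more, the median of this difference was 0.107 in KLHL3-KI and 0.102 in WT, and the 95th percentile was 0.356 in KLHL3-KI and 0.331 in WT. In that set 2 genes in KLHL3-KI and 7 in WT had a larger gap than Igha, and 4 genes in KLHL3-KI and 9 in WT had a larger gap than Ighg3.

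Other members had a wide gap in one group or in both. Ighg1 had a log2 difference of 0.08 in KLHL3-KI and 1.02 in WT, and only 15 genes of that set had a larger gap in WT. Iglc1 had 0.46 in KLHL3-KI and 0.87 in WT. Iglc2 had 0.61 in KLHL3-KI and 0.07 in WT, Ighg2b had 0.68 in KLHL3-KI and 0.15 in WT, and Ighg2c had 0.75 in KLHL3-KI and 0.27 in WT. Ighm, Ighd and Igkc stayed under the 95th percentile in both groups, at 0.18, 0.28 and 0.18 in KLHL3-KI and 0.19, 0.07 and 0.14 in WT. Whether such gaps lie between animals or between preparations was not tested.

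**Figure D4:**
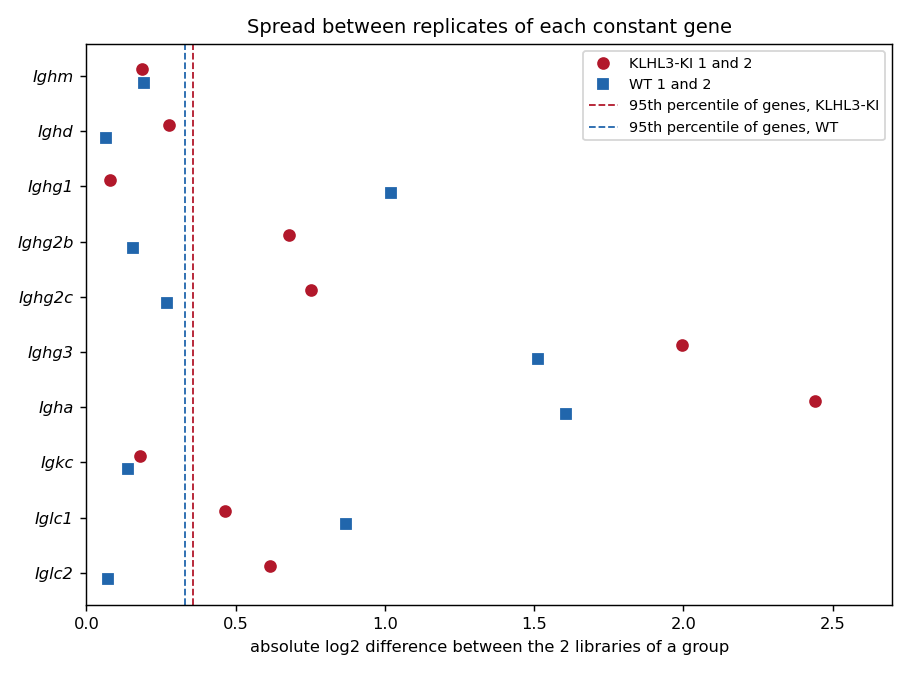
Absolute log2 difference between the 2 libraries of each group for each constant gene, with dashed lines at the 95th percentile of genes that averaged 50 or more. Igha and Ighg3 lie far beyond the lines in both groups, and Ighm, Ighd and Igkc lie within them.

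Levels of different genes were compared per kilobase of the short annotated form of each gene. Igkc was highest, at 10645 ± 937 in KLHL3-KI and 7444 ± 508 in WT, followed by Ighm at 7826 ± 707 in KLHL3-KI and 6912 ± 651 in WT (scaled reads per kilobase, SD, n = 2 each). Ighg1 was lowest, at 76.9 ± 3.04 in KLHL3-KI and 133 ± 64.3 in WT. The first 2 places and the last were the same in both groups, and also when the union of annotated exons was used as the length. In between, Ighd held rank 6 in KLHL3-KI and rank 3 in WT, and Igha held rank 3 in KLHL3-KI and rank 5 in WT. Among these middle genes the order moved with the choice of length, and Igha, Ighg3 and Iglc1 in particular do not differ from their neighbours beyond their spread.

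Of the other constant genes, Ighe and Iglc4 had few reads. Ighe, the constant gene of IgE, had 3 and 10 reads in KLHL3-KI libraries, against 26 and 11 reads in WT libraries, and its log2 fold change of −0.84 (SE 0.34) had an adjusted p of 0.112 with limma. Iglc4 was under the minimum, with 5 and 3 reads in KLHL3-KI libraries, against 2 and 4 reads in WT libraries. Jchain, which encodes the joining chain of polymeric IgM and IgA, had values of 1557 and 2056 in KLHL3-KI libraries, against 1413 and 1497 in WT libraries. Both KLHL3-KI values of Jchain were higher, and the log2 fold change was 0.30 (SE 0.14, adjusted p = 0.155, limma).

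B cell genes, which mark the cells that carry these transcripts, moved down as a list: 17 of 18 tested fell, 0 rose, and the median log2 fold change was −0.69. By comparison, 15.2% of all tested genes were called higher and 7.56% lower. Fcer2a, the low-affinity IgE receptor of mature B cells, fell by 0.89 on the log2 scale, Fcmr, the IgM receptor, fell by 0.74, Ebf1, a B lineage transcription factor, fell by 0.77, and Ralgps2 fell by 0.75. Ms4a1, which encodes CD20, and Cd79a, which encodes a signalling chain of the B cell receptor, fell by 0.64 and 0.57. The count of B cell genes called lower was 7 in a fit with no variance trend, 10 when WT replicate 1 was left out and 4 when WT replicate 2 was. In bulk RNA, fewer B cells and less RNA per B cell cannot be told apart.

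Set against the mean of this B cell list, Ighd differed by −0.10 (SE 0.16, adjusted p = 0.570, limma), Ighg1 by −0.04 (SE 0.28) and Iglc2 by 0.11 (SE 0.21), and none of these passed. Ighm stood above the list by 0.83 (SE 0.20, adjusted p = 0.00630, limma) and Igkc by 1.17 (SE 0.18, adjusted p = 0.000765, limma). Igha stood above it by 2.14 (SE 0.69, adjusted p = 0.0237, limma) and Ighg2c by 0.70 (SE 0.24, adjusted p = 0.0280, limma). On that scale 63.5% of all tested genes were called higher, because the B cell list itself fell, so 4 of 10 constant genes called higher is not above the background. The values of Igha and Ighg2c overlapped between the groups on the authors' scaling. Their p-values also rest on variances drawn toward those of genes of like level.

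**Figure D5:**
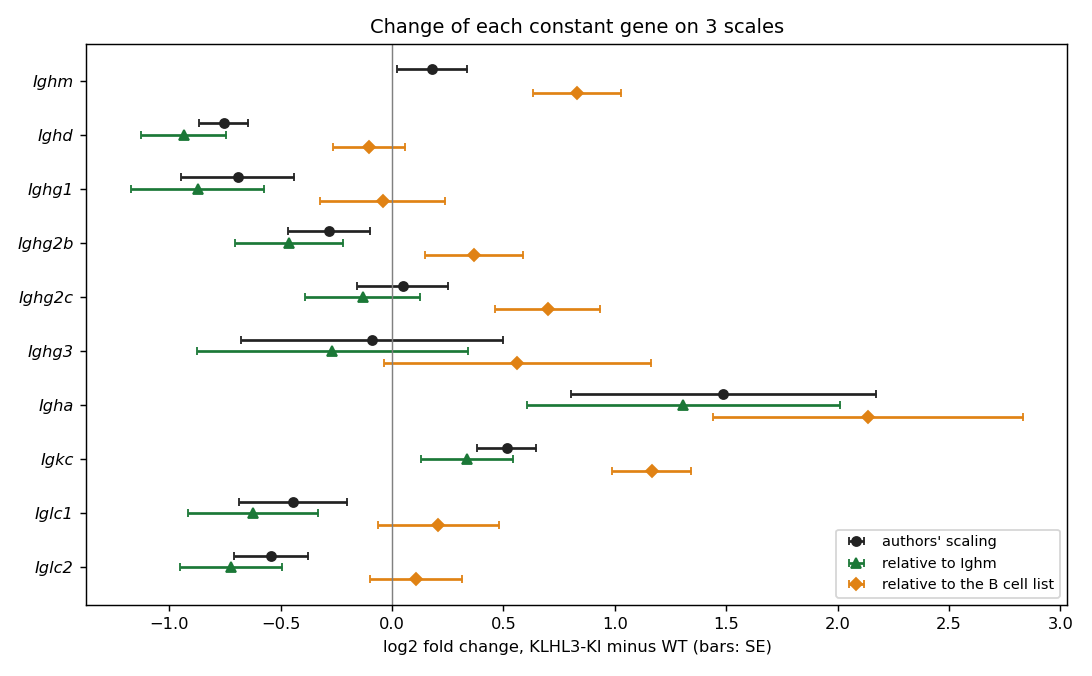
Log2 fold change (KLHL3-KI minus WT, bars SE from limma) of each constant gene on the authors' scaling (black), relative to Ighm (green) and relative to the mean of the B cell list (orange). Ighd is at −0.76 on the authors' scaling, −0.93 relative to Ighm and −0.10 relative to the B cell list, and Igkc is at 0.51, 0.34 and 1.17 on these scales.

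Genes of plasma cells and of antibody secretion did not move together: of 24 tested, 1 rose and 4 fell, with a median log2 fold change of −0.09. By comparison, 15.2% of all tested genes were called higher and 7.56% lower. Ell2, an elongation factor that favours secreted heavy chain RNA, had 98.6 and 119 in KLHL3-KI libraries, against 74.7 and 71.3 in WT libraries (log2 fold change 0.56, adjusted p = 0.00605, limma). Over the alternatives its log2 fold change ran from 0.40 to 0.70, and the call was lost without a variance trend. The 4 that fell were Cd28, a co-stimulatory receptor shared with T cells, at −0.69, Tnfrsf13b, the receptor TACI, at −0.55, Slamf7 at −0.49 and Irf4, a transcription factor of activated B cells and plasma cells, at −0.37. Xbp1, Prdm1, Sdc1 and Mzb1, which were to be named whatever their p, did not pass. Xbp1, the transcription factor of the secretory programme, had 237 and 254 in KLHL3-KI libraries, against 214 and 209 in WT libraries (adjusted p = 0.119, limma), Prdm1 had a log2 fold change of 0.19 (adjusted p = 0.357), Sdc1 of −0.14 (adjusted p = 0.461) and Mzb1, a chaperone of IgM assembly, of −0.26 (adjusted p = 0.117). With libraries scaled to equal totals 10 of the 24 were called lower. On that scale 3126 of all tested genes were called lower, against 1283 on the authors' scaling. Without a variance trend 1 of the 24 was called lower, where 659 of all tested genes were.

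Genes of class switching and its repair steps were split, with 7 of 34 higher and 7 lower (median log2 fold change 0.09), and 5 higher and 3 lower without WT replicate 2. The background for this list and for the germinal centre list was 15.2% of all tested genes called higher and 7.56% called lower. Bach2, a B cell transcription factor needed for switching, fell by 0.97. Of the 7 that rose, the 4 with the lowest p are genes of DNA repair and chromatin that any dividing cell uses: H2afx rose by 2.24, Exo1 by 1.53, Nbn by 0.75 and Msh6 by 0.65. Beside them, the erythroid list rose in 15 of 15 genes, and its part in these rises was not tested. Germinal centre genes included 4 of 11 that fell and 0 that rose, with a median of −0.47, and without either WT replicate 1 or WT replicate 2 the number that fell was 2. With equal totals, which moved the median of all genes to −0.16, 8 of the 11 germinal centre genes and 11 of the 34 class switching genes were called lower. On that scale 3126 of all tested genes were called lower too, against 1283 on the authors' scaling. Mef2b had a log2 fold change of −1.39, Nuggc of −1.26 and Rgs13 of −1.09, all at levels under 7 in every library, and Bcl6, the main transcription factor of germinal centre B cells, fell by 0.67.

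Of 12 antibody receptor genes, 2 rose and 4 fell, with a median of −0.25, beside 15.2% of all tested genes called higher and 7.56% called lower. Those that fell were Fcer2a and Fcmr, named above, Cd22 at −0.72 and Fcamr, a receptor for IgA and IgM, at −1.11. Cd22 is an inhibitory lectin of B cells that this list also held. Fcer2a, Fcmr and Cd22 are in the B cell list as well, so their falls are counted in both lists. Fcgr3, an activating IgG receptor of myeloid cells, had 81.1 and 94.3 in KLHL3-KI libraries, against 60.3 and 48.6 in WT libraries (log2 fold change 0.68, adjusted p = 0.00459, limma), and Fcgr4 was the other that rose. Without WT replicate 2 neither was called higher, and 2 genes of the list were called lower.

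Lists of other spleen cell types were counted in the same way, against the same background of 15.2% of all tested genes called higher and 7.56% called lower. Of the erythroid list, 15 of 15 genes rose, and its summed value was 9587 and 11141 in KLHL3-KI libraries, against 2314 and 1817 in WT libraries. Of the neutrophil list, 12 of 12 rose, with sums of 1535 and 2105 in KLHL3-KI libraries, against 165 and 74.3 in WT libraries. Of the T cell list, 16 of 16 fell, with sums of 482 and 446 in KLHL3-KI libraries, against 857 and 755 in WT libraries, and of the red pulp macrophage list 2 of 10 rose, namely Cd163 and Vcam1, beside 15.2% of all tested genes. Without WT replicate 1 the T cell count was 8 and the red pulp count 1, and without WT replicate 2 the red pulp count was 0. The B cell sums were 6451 and 5443 in KLHL3-KI libraries, against 8397 and 8674 in WT libraries. No gene of these lists was at 0 in all libraries. The part of these shifts in the changes of the constant genes was not tested.

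By Euclidean distance of centred log2 profiles over the 4 libraries, among 9890 genes that averaged 10 or more, the genes most like Ighm were Bad, Slc30a1 and Deaf1, at distances of 0.0289, 0.0508 and 0.0549. Those most like Igkc were Xrcc2, H6pd and Cox19, at 0.0297, 0.0361 and 0.0363. Many genes can match a profile of 4 points this closely, and none of these 6 is an immunoglobulin gene.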

How the data were processed

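Per the submitters' processing notes, Trimmomatic 0.38, Bowtie2, RSEM 1.3.0 and edgeR were used with build GRCm39; the sources used here give neither their roles nor the annotation. The table deposited by the authors gives a normalized signal per gene and library. Within 0.001, 100% of values were whole multiples of the value of 1 read in their library, so whole reads were recovered. Gene names (23605 of 23763 identifiers, 99.3%) came from GENCODE M21 on GRCm38. Replicates are numbered as in the sample titles; the library names carry other numbers except for KLHL3-KI replicate 1. The labels do not say that samples are separate animals, so p-values rest on a spread between these samples that may be technical. They also do not rest on the spread of 1 gene alone, because limma draws each variance toward that of genes of like level. For Ighg3, a gene with a wide spread, the SE was 0.59 in the main fit and 1.20 with a robust variance model.

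The members and the gene lists were chosen with earlier results of these data known. Genes whose values averaged 1 or more were compared with limma 3.58.1 in R 4.3.3 on log2(value + 1), with a pseudocount of 1, a mean-variance trend, two-sided tests and Benjamini-Hochberg adjustment over all tested genes. Changes relative to Ighm, Igkc or the B cell list are differences of log2 fold changes from that fit with both variances added. The design had specified limma on log2 ratios to Ighm, which made too many false calls on simulated data, so it is given as an alternative. Named genes were the 10 members and other constant genes, the 5 lowest p in each B cell or antibody list, a fixed set of plasma and B cell markers, 2 of each other list, and the 3 profiles most like Ighm and Igkc. Fcgr4 and Klhl3 were named after their values were seen. Some genes that the rule named are not reported here.

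Alternatives were edgeR 4.0.16 (quasi-likelihood, TMM) and DESeq2 1.42.0 on recovered reads, pseudocounts, filters, scalings, variance models, the replicate block and leaving out each library. Same-numbered replicates did not deviate together (correlation −0.03 over genes), and the main fit did not treat them as pairs. With 2 libraries per group, this correlation cannot exclude that same-numbered samples shared a preparation. Depth was 8535483 to 10933023 reads per library. Intervals on shares are exact (Clopper-Pearson, 95%). The main limma fit, edgeR, DESeq2, both fits relative to Ighm and the replicate block were run on simulated data with known changes. The other settings were not. Every simulated gene had the same scatter between libraries beyond counting error, so genes that vary as widely as Igha or Ighg3 were not covered.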

Additional observations from a re-analysis of the deposited data

How the results depend on the processing

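Of the comparisons of the 10 genes under alternative settings, single log2 fold changes and changes relative to Ighm together, 202 kept their direction and side of the threshold, 28 newly passed, 19 no longer passed and 20 turned direction; the causes were not tested. The number of constant genes called higher was 0 without a filter, with quantile normalization, with equal totals and without a variance trend, and 0 to 3 with 1 library left out. The number called lower was 1 without a filter, in edgeR, in DESeq2, without a variance trend and with a robust variance model, and 2 to 5 with 1 library left out; without KLHL3-KI replicate 1 it was 5 and the number higher 3. With the replicate block, 1 was higher and 3 lower, Ighg1 being added (adjusted p = 0.00899, limma), and no other call on the 10 genes changed. By the labels, same-numbered samples share only a number, and over all genes 4130 were called with the block against 3866 without it. Over all genes, leaving out 1 library gave 1386 to 2903 called higher and 267 to 1627 called lower. The count called lower was 2369 with quantile normalization, 3126 with equal totals, 2683 with haemoglobin, immunoglobulin and mitochondrial genes removed from the totals, 781 in DESeq2, 659 without a variance trend and 1991 at an adjusted p of 0.1, against 1283. Equal totals moved the median of all genes to −0.16 and the removal of those genes to −0.14, and relative to the median Igkc stood at 0.51 under both. Relative to the median it stood at 0.52 in the main fit and at 0.33 with quantile normalization.

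Direction turned for Ighm with quantile normalization (−0.32), for Ighg2b with 1 library left out (−0.62 to 0.056), for Ighg2c with quantile normalization (−0.11), equal totals (−0.12), those genes removed (−0.091) and 1 library left out (−0.33 to 0.42), and for Ighg3 in edgeR (0.024), DESeq2 (0.038) and with 1 library left out (−1.09 to 0.91). Relative to Ighm, it turned when the B cell list replaced Ighm for Ighg2b (0.37), Ighg2c (0.70), Ighg3 (0.56), Iglc1 (0.21) and Iglc2 (0.11), and with 1 library left out for Ighg2c (−0.60 to 0.34), Ighg3 (−1.17 to 0.64) and Igha (−0.0057 to 2.62). The limma fit on log2 ratios to Ighm, which the design had specified, made too many false calls on simulated data, so its calls cannot back those above. It called Ighd lower (adjusted p = 0.000483) and also called Ighg1 (0.00122), Igha (2.26e-07), Iglc1 (0.0336) and Iglc2 (0.0109). In the reported test relative to Ighm (limma with both variances added), Ighg1 (adjusted p = 0.110), Igha (0.267), Iglc1 (0.213) and Iglc2 (0.0904) did not pass. Among shares, the lambda difference was −2.24 percentage points without near-identical genes, the Ighd difference was −3.64 with short-form lengths (added after the data were seen), and the light chain difference was 3.75 per kilobase of exon and 3.13 with short-form lengths. Precision is limited by 2 libraries per group, and Ighe also rests on only 3 to 26 reads.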
